A study of Mus musculus with 9 samples.

Results

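The genes described here are the RNA-binding proteins Lin28a and Lin28b, the enzymes Tut4, Tut7 and Dis3l2 that act with them on let-7 precursors, and 4 mRNAs that let-7 is known to repress: Hmga2, Igf2bp1, Igf2bp2 and Igf2bp3. Each was taken by its gene symbol, which gave 9 genes of the 56691 in every count table, and none was lost to the filter on low counts. RNA-seq was done on 9 libraries of embryoid bodies made from BVSC PSCs, a mouse pluripotent stem cell line with a Blimp1-mVenus (BV) and a Stella-CFP reporter. Cells with and without BV signal were sorted, and the labels name the first PGCLCs (primordial germ cell-like cells) and the second somatic cells. The 4 groups were BV+ NRF1 OE (n = 2), BV+ Ctrl (n = 2), BV- NRF1 OE (n = 3) and BV- Ctrl (n = 2). NRF1 OE cells carried a p20 vector with mouse Nrf1 cDNA, Ctrl cells an empty vector, and the treatment text, the same for all libraries, gives doxycycline at 1.5 μg/mL from day 2 to day 5. NRF1 (nuclear respiratory factor 1) is a transcription factor, and the comparisons ask how its enforced expression and the sort by BV relate to gene expression. The labels do not say whether the libraries of a group came from separate cultures, so p-values measure the spread between these libraries, which may be technical.

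The let-7 microRNAs pair through their seed with sites in the 3′ UTRs of mRNAs, which lowers the stability and translation of those mRNAs. LIN28 proteins bind the loop of let-7 precursors, where TUT4 or TUT7 then adds a uridine tail and DIS3L2 degrades the tailed RNA, so that pluripotent and early germ cells with abundant LIN28 hold little mature let-7. Lin28a and Lin28b mRNAs are themselves let-7 targets, and LIN28 is known for a role in the specification of primordial germ cells.

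The seed is shown first because the matches searched for below pair with it. Of the mature 5p forms of the mouse let-7 family in RefSeq, 10 share the seed GAGGUAG, and let-7j has GAGGUAU. In these 4 forms, the capitals mark the seed, bases 2 to 8.
let-7a-5p: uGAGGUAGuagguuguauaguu
let-7d-5p: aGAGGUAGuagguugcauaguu
let-7g-5p: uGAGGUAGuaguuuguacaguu
miR-98-5p: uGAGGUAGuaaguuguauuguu
The 4 forms differ at the first base and downstream of the seed. The LIN28 zinc knuckles recognise GGAG, which was found after the 5p arm in 9 of 12 let-7 and miR-98 hairpins and was not found in those of Mirlet7b, Mirlet7c-2 and Mir98. The hairpin of Mirlet7g, with GGAG in capitals, and that of Mirlet7b, which has none, show the difference.
Mirlet7g: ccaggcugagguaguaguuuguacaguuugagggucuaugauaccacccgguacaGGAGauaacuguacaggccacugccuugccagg
Mirlet7b: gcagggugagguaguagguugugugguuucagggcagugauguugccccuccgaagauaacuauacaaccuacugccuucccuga

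The 3′ UTRs of the members were searched on the sense strand for CTACCTC, which pairs with let-7 bases 2 to 8, and for CTACCTCA, which contains it and adds an A. For each gene the annotated transcript with the longest 3′ UTR was used (GENCODE M21 on GRCm38, while the counts were made on GRCm39). Over all 21045 genes with a 3′ UTR, 9.02% held the shorter match and 3.06% the longer. The shorter match occurred 4 times in each of Hmga2, Lin28b and Igf2bp1, 2 times in Lin28a and 1 time each in Igf2bp2 and Igf2bp3. It was in none of the UTRs of Tut4, Tut7 and Dis3l2. Among all 3′ UTRs of 80% to 125% of the member's length, itself included, the share with at least as many matches was counted. It was 0.123% for Hmga2, 0.295% for Lin28b, 0.331% for Igf2bp1 and 2.06% for Lin28a. For Igf2bp2 and Igf2bp3 it was 12.1% and 13.3%, so their 1 match is common at that length. The longer match was present in all 6 of these target genes. The first one in each gene is given here with 22 bases before it, all on the minus strand and within the last exon, with the match in capitals.
Hmga2, chr10:120364224-120364253: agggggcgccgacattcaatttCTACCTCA
Lin28b, chr10:45381022-45381051: tcccttcacccgggcgggaagtCTACCTCA
Lin28a, chr4:134005189-134005218: ttggagtgcacagcctgttgaaCTACCTCA
Igf2bp1, chr11:95961778-95961807: aggcagtgctgtgcgaagtaaaCTACCTCA
Igf2bp2, chr16:22059473-22059502: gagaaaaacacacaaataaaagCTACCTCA
Igf2bp3, chr6:49086787-49086816: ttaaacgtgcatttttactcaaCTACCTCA
In Hmga2 the match began at base 58 of the 3′ UTR and in Lin28b at base 36, close to the stop codon. A match of letters is a description and does not show that let-7 acts on the site.

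Total counts per library were 13702162 to 19625460, lowest in BV- NRF1 OE replicate 2. Nrf1 itself was measured at 95.7 and 99.4 CPM (counts scaled to a common library size with TMM factors) in BV+ NRF1 OE and 91.1 and 90.4 in BV+ Ctrl, and at 119, 122 and 126 in BV- NRF1 OE and 99.1 and 105 in BV- Ctrl. The libraries labelled NRF1 OE were thus above their Ctrl libraries, by 0.10 ± 0.10 (log2, SE) in BV+ and 0.26 ± 0.10 in BV- cells, but neither rise passed in edgeR (adjusted p = 0.489 and 0.0718). PGC markers did not as a list separate the sorted cells: the summed CPM of 8 of them was 370 to 410 in BV+ and 387 to 547 in BV- libraries, and with Ctrl 0 of the 8 passed in edgeR (3 at an unadjusted p under 0.05, and 1, Itgb3, in DESeq2). Prdm1, which encodes BLIMP1 and is the gene of the BV reporter, differed between BV+ and BV- cells by 0.05 ± 0.17 with Ctrl. With NRF1 OE it differed by 0.00074 ± 0.15, and neither passed in edgeR. With NRF1 OE, Itgb3 was higher in BV+ cells (1.24), while Dppa3 (-0.65), Nanos3 (-1.04) and Tfap2c (-0.43) were lower. Naive pluripotency genes summed to between 1009 and 1339 CPM in all groups, 5 mesoderm genes to at most 8.92 and 5 endoderm genes to at most 21.3, so the populations are called BV+ and BV- cells here. Summed neuroectoderm genes (3, of which Neurog2 had no count outside BV+ NRF1 OE) had 51.0 to 57.1 CPM in BV+ NRF1 OE, 38.0 to 43.2 in BV+ Ctrl, 26.7 to 36.5 in BV- NRF1 OE and 24.7 to 29.4 in BV- Ctrl. Summed blood genes (3) had 6.15 to 7.06, 3.08 to 3.09, 1.81 to 2.95 and 1.07 to 2.51 CPM in the same order. With NRF1 OE this sum followed Tal1, at a mean of 5.96 CPM in BV+ and 1.02 in BV- cells. Hbb-bh1 (0.43 and 0.70) and Gata1 (0.21 and 0.47) were near 0 and lower in BV+ cells, so the list as a whole did not rise. Sox1 of the neuroectoderm list was higher in BV+ cells with NRF1 OE (0.93, adjusted p = 0.00493 in edgeR). Tal1 was too (2.54, adjusted p = 0.000941 in edgeR), as were Hmga2, Lin28b and Lin28a below. Whether other cell types have a part in the members' differences was not tested. Against Ctrl, NRF1 OE in BV- cells had 5 of the PGC markers higher, and of 6 naive pluripotency genes 3 lower and 1, Esrrb, higher (0.39, adjusted p = 0.0338 in edgeR), where 10.2% of all genes were called higher and 6.98% lower. In BV+ cells 2 PGC markers were higher and 2 naive pluripotency genes lower, where the shares were 6.24% and 1.78%. The libraries also differed in how gene levels ran with the GC content of transcripts. The Spearman correlation, across genes, of transcript GC with a gene's deviation from its mean over the libraries was -0.505 to -0.398 in the Ctrl libraries, 0.0237 and 0.282 in BV+ NRF1 OE, and 0.0294, 0.621 and 0.468 in BV- NRF1 OE. Because this trend differed between NRF1 OE and Ctrl, results are also given with offsets that remove, library by library, the trend over GC content and transcript length. A technical trend and a change that came with NRF1 OE cannot be told apart here, so the offsets may remove both. GC content was 39.9% for Dis3l2, 40.6% for Lin28b and 42.5% for Tut4, against a median of 49.8% over the genes tested, and lay between 45.7% and 50.8% for the other members.

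Per length, Lin28a was the most abundant of the 9 genes in every group and Igf2bp1 came next. On the FPKM scale of the deposited tables, Lin28a had 108 ± 8.62 (SD, n = 2) in BV+ NRF1 OE, 87.2 ± 4.43 (n = 2) in BV+ Ctrl, 78.5 ± 5.16 (n = 3) in BV- NRF1 OE and 77.0 ± 4.34 (n = 2) in BV- Ctrl. Igf2bp1 lay between 67.8 and 73.2 FPKM in all libraries, Igf2bp2 between 27.9 and 42.2, and Igf2bp3 between 17.0 and 26.0. The Igf2bp genes encode RNA-binding proteins that stabilise and localise mRNAs. Lin28b, at 1.55 to 7.22 FPKM, was far below Lin28a in each library. Tut4, at 4.64 to 15.0 FPKM, was above Tut7, at 1.43 to 3.67, in each library, and Dis3l2 lay at 3.49 to 4.65. The first 4 places were the same in all groups, while Hmga2 took place 5 in BV+ NRF1 OE at 17.9 FPKM, place 6 in both Ctrl groups and place 7 in BV- NRF1 OE at 2.69. Neighbours whose ranges overlapped were Tut4 and Dis3l2, Hmga2 and Tut7, and Tut7 and Lin28b in BV- NRF1 OE, and Tut7 and Lin28b in BV- Ctrl.

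**Figure D1:**
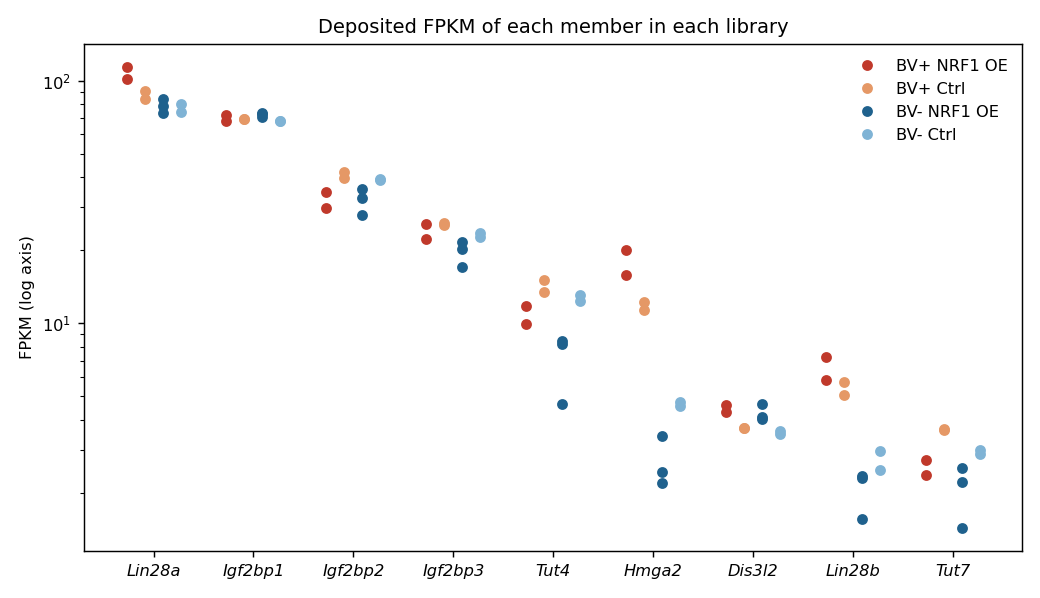
Deposited FPKM (log axis) of the 9 genes, ordered by their median, with a point for each library coloured by group. Lin28a and Igf2bp1 lay above 67 FPKM in every library, and Hmga2 ranged from 2.20 to 20.03.

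Between BV+ and BV- cells with the empty vector, Lin28b and Hmga2 passed in edgeR. Hmga2 encodes a chromatin protein of stem and embryonic cells and is among the best known let-7 targets. Hmga2 (ENSMUSG00000056758) had 74.6 and 80.9 CPM in BV+ Ctrl and 31.8 and 30.8 CPM in BV- Ctrl. Lin28b (ENSMUSG00000063804) had 44.6 and 50.4 CPM in BV+ Ctrl and 26.7 and 22.4 in BV- Ctrl. In both genes the BV+ libraries lay above the BV- libraries without overlap. The share of all genes that separate in this way was not counted, here or in the comparisons below. With so few libraries a gene can separate by chance. Hmga2 was 2.49-fold higher in BV+ cells (log2 1.31 ± 0.20, SE) with an adjusted p of 0.00808 in edgeR, and Lin28b 1.94-fold higher (log2 0.95 ± 0.20) with an adjusted p of 0.0490. These 2 of 9 compare with 1.1% of all genes tested called higher in BV+ cells, and 0 of 9 with 0.0237% called lower. The median log2 difference was 0.14 over the members and -0.01 over all genes tested. Of the other members, Tut7 differed most, by 0.29 ± 0.21 (adjusted p = 0.895 in edgeR), and was called in a fit of the Ctrl libraries alone (0.30, adjusted p = 0.0398 in edgeR). The share of all genes called in that fit is not given. Lin28a differed by 0.15 ± 0.11 (adjusted p = 0.895). Lin28b lost its call without any 1 of the 4 Ctrl libraries (adjusted p = 0.190 to 0.542 in edgeR) and Hmga2 without 3 of them (0.0784 to 0.126), while their log2 differences stayed at 0.80 to 1.08 and 1.25 to 1.37. With GC and length offsets both were called, at 0.82 and 1.23. As in any bulk sample, more cells that express a gene and more RNA of it in each cell cannot be told apart.

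With NRF1 OE, the same direction was seen in Lin28b and Hmga2 with larger differences, and Lin28a was also higher in BV+ cells. Hmga2 had 137 and 106.98 CPM in BV+ NRF1 OE and 16.9, 15.0 and 23.9 CPM in BV- NRF1 OE, a 6.54-fold difference (log2 2.71 ± 0.18) with an adjusted p of 4.40e-06 in edgeR. Lin28b had 66.2 and 52.3 CPM against 21.5, 14.2 and 21.4, a 3.1-fold difference (log2 1.63 ± 0.18) with an adjusted p of 0.000124 in edgeR. Lin28a (ENSMUSG00000050966) had 460 and 404 CPM against 299, 338 and 323, a 1.35-fold difference (log2 0.43 ± 0.10) with an adjusted p of 0.0155. No BV+ library overlapped a BV- library in any of the 3 genes, and how many of all genes did the same was not counted. Background shares were 9.9% of all genes called higher and 3.85% called lower in BV+ cells, against 3 and 0 of the 9 members, and the median log2 difference was 0.28 over the members and -0.0049 over all genes. Tut4, the main uridylyl transferase of let-7 precursors, had 87.4 and 102 CPM in BV+ and 74.3, 40.7 and 73.8 in BV- cells, where replicate 2 was lowest. Its log2 difference of 0.59 ± 0.21 did not pass in edgeR (adjusted p = 0.0883). Without BV- NRF1 OE replicate 2 it passed at 0.39 (adjusted p = 0.0239 in edgeR), where 11.8% of all genes were called higher and 3.03% lower. Igf2bp3 differed by 0.26 ± 0.12 (adjusted p = 0.170), and Tut7, Dis3l2, Igf2bp1 and Igf2bp2 by -0.07 to 0.28, with none passing. Hmga2 and Lin28b were called without each library in turn, and Lin28a was not without BV+ NRF1 OE replicate 1 (adjusted p = 0.159 in edgeR) or BV- NRF1 OE replicate 3 (0.0564). With offsets, where 9.96% of all genes were called higher and 21% lower, Hmga2, Lin28b and Lin28a were still called higher, by 2.54, 1.26 and 0.34, and Igf2bp1 was called lower, by -0.40 (adjusted p = 0.00139 in edgeR).

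**Figure D2:**
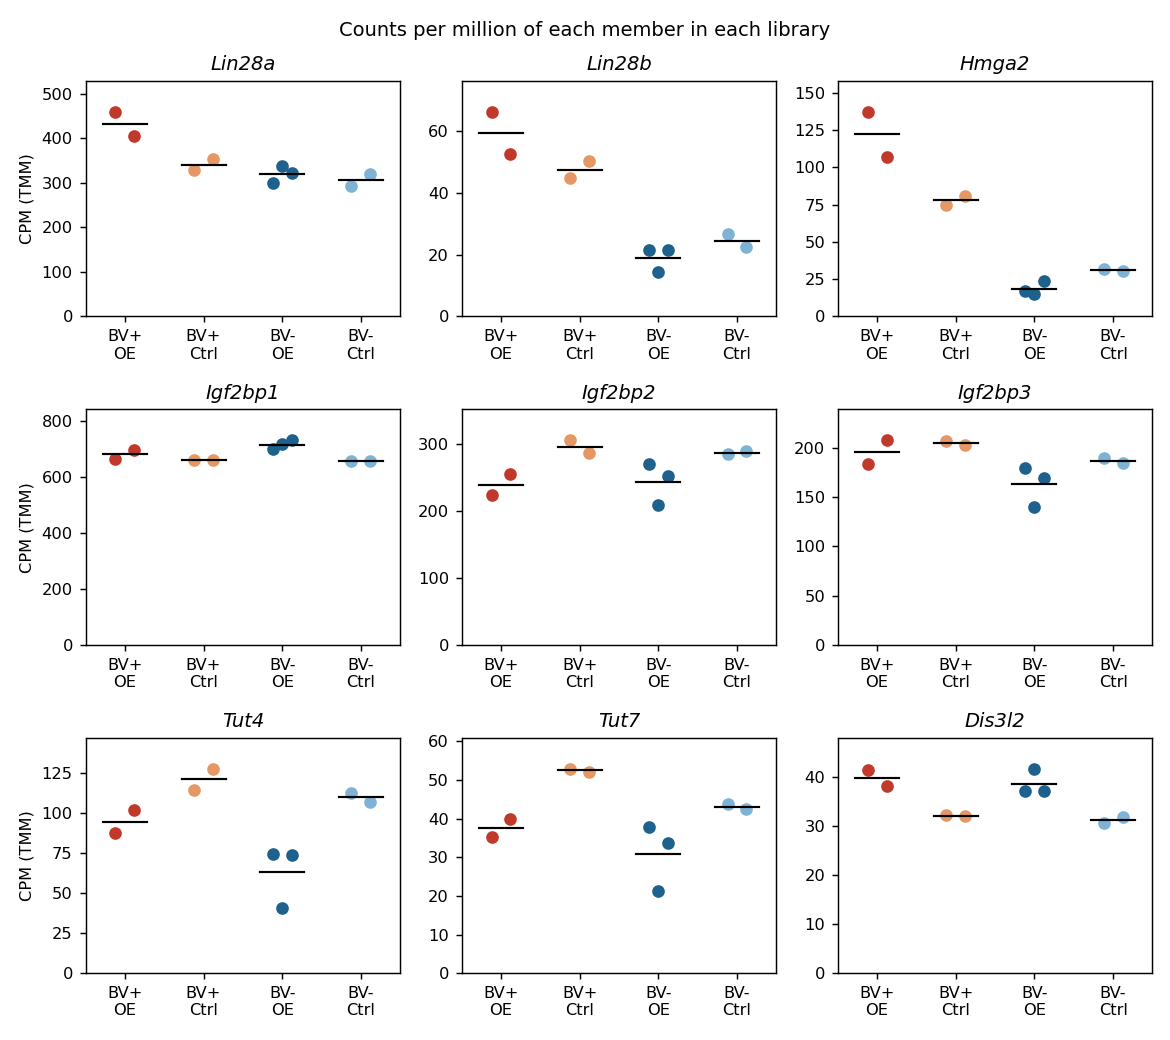
CPM scaled by TMM factors (axes from 0) for each of the 9 genes, with a point for each library and a line at the group mean. For Hmga2 all 4 BV+ libraries lay at 74.6 or more and all 5 BV- libraries at 31.8 or less, and Igf2bp1 lay between 655 and 730 in all 9.

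In BV+ cells, Hmga2, Lin28a, Lin28b and Dis3l2 values were higher with NRF1 OE than with Ctrl. Those of Tut4, Tut7 and Igf2bp2 were lower, but 0 of 9 members passed in edgeR. The background was 6.24% of all genes called higher and 1.78% lower. Hmga2 differed by 0.65 ± 0.19 (log2, SE, adjusted p = 0.0573), Lin28a by 0.34 ± 0.11 (adjusted p = 0.0731) and Lin28b by 0.32 ± 0.20 (adjusted p = 0.265). The OE and Ctrl libraries given above did not overlap in any of the 3, though for Lin28b the nearest had 52.3 and 50.4 CPM. Such separation was not counted over all genes. Dis3l2, the exonuclease that degrades uridylated let-7 precursors, had 41.5 and 38.3 CPM against 32.2 in each Ctrl library, a difference of 0.31 ± 0.12 (adjusted p = 0.115). Tut4 had 87.4 and 102 CPM against 114 and 128, a difference of -0.36 ± 0.23 (adjusted p = 0.286). Tut7, which can act in place of Tut4, had 35.3 and 39.9 CPM against 52.9 and 52.1, a difference of -0.48 ± 0.21 (adjusted p = 0.138). Among the Igf2bp genes, Igf2bp2 had 223 and 255 CPM against 305 and 286 (-0.31 ± 0.13, adjusted p = 0.134), and Igf2bp1 and Igf2bp3 differed by 0.04 and -0.06. Of the members, 5 had an unadjusted p under 0.05 in edgeR, as did 5487 of the 16903 genes tested. DESeq2 called 1 (Hmga2) on all libraries, where 8.9% of all genes were called higher and 3.56% lower, and 5 on the BV+ libraries alone. Without the least deeply sequenced library, BV- NRF1 OE replicate 2, which is in neither group, edgeR called Hmga2 and Lin28a higher and Tut4, Tut7 and Igf2bp2 lower. For the fit of the BV+ libraries alone and the fit without that library, shares of all genes are not given. Their counts are therefore not read as particular to the members. With GC and length offsets Hmga2 (0.82), Lin28b (0.63) and Lin28a (0.31) were called higher (adjusted p = 0.00947, 0.0116 and 0.0402 in edgeR), none lower, and the background was 7.74% higher and 5.54% lower.

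In BV- cells, NRF1 OE was accompanied by lower Hmga2 and Tut4. Hmga2 fell to 16.9, 15.0 and 23.9 CPM from 31.8 and 30.8, a log2 change of -0.75 ± 0.18 (adjusted p = 0.0334 in edgeR). Tut4 fell to 74.3, 40.7 and 73.8 CPM from 112 and 106.9, a change of -0.80 ± 0.21 (adjusted p = 0.0354). All 3 NRF1 OE libraries lay below both Ctrl libraries in either gene, a separation that was not counted over all genes. These 2 of 9 compare with a background of 6.98% called lower, and 0 of 9 with 10.2% called higher. The median log2 change was -0.24 over the members and 0.01 over all genes tested. Tut7 had 37.8, 21.3 and 33.8 CPM against 43.7 and 42.5 (-0.47 ± 0.19, adjusted p = 0.0934), and Lin28b 21.5, 14.2 and 21.4 against 26.7 and 22.4 (-0.36 ± 0.19, adjusted p = 0.172). In Tut4, Tut7, Lin28b and Hmga2 the lowest value was that of replicate 2, the library with the strongest GC trend. Dis3l2 had 37.2, 41.8 and 37.2 CPM against 30.8 and 31.9 (0.30 ± 0.11, adjusted p = 0.0762). Lin28a, at 0.07 ± 0.10, and the Igf2bp genes, at -0.24 to 0.12, did not pass either. With GC and length offsets the changes were -0.49 for Hmga2 and -0.31 for Tut4 and no longer passed (adjusted p = 0.0787 and 0.0767 in edgeR), Lin28b turned to 0.19 (adjusted p = 0.389), and Dis3l2 (0.91, adjusted p = 0.0195) and Igf2bp1 (0.25, adjusted p = 0.0494) were called higher. The background was then 7.27% higher and 2.04% lower. Both calls were also lost without either Ctrl library (adjusted p = 0.311 and 0.117), and that of Tut4 without NRF1 OE replicate 3 (0.0595). Both held without replicate 2, at -0.64 and -0.59, where 6.41% of all genes were called higher and 8.16% lower.

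**Figure D3:**
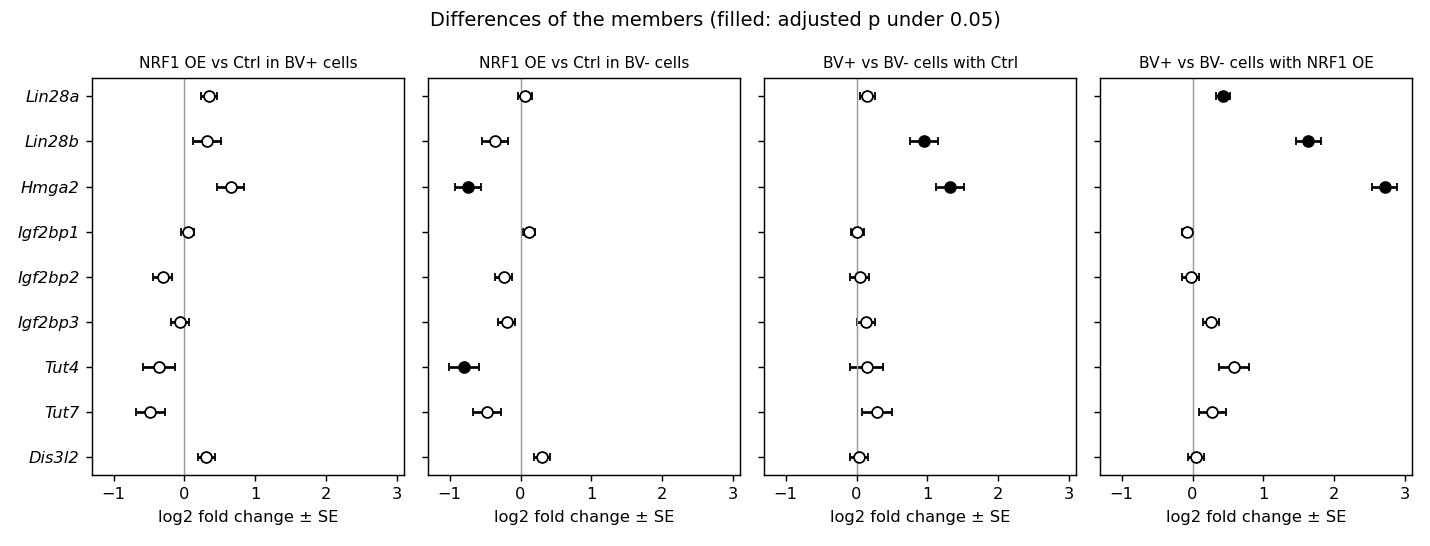
Log2 fold changes with their standard errors from edgeR for the 9 genes in the 4 comparisons. Filled points had an adjusted p under 0.05, which was 0 genes for NRF1 OE in BV+ cells, 2 in BV- cells, and 2 and 3 between BV+ and BV- cells with Ctrl and with NRF1 OE.

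**Figure D4:**
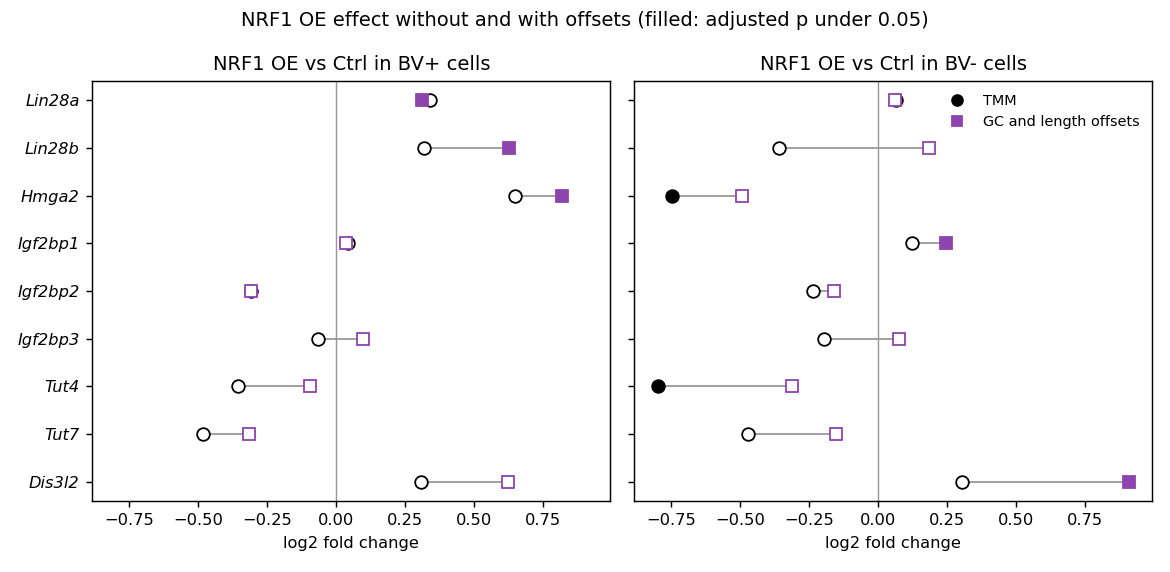
Log2 fold change for NRF1 OE against Ctrl in BV+ (left) and BV- cells (right), without offsets (circles) and with GC and length offsets (squares), filled where the adjusted p was under 0.05. In BV- cells Lin28b moved from -0.36 to 0.19, and Tut4 from -0.80 to -0.31.

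The change with NRF1 OE had opposite signs in BV+ and BV- cells for Lin28b and Hmga2. The difference between the changes was 1.40 ± 0.26 for Hmga2 (unadjusted p = 0.000223, adjusted p = 0.455 in edgeR) and 0.68 ± 0.27 for Lin28b (unadjusted p = 0.0280, adjusted p = 0.815). It passed for 0 of 9 members and for 0% of all genes in edgeR, with an unadjusted p under 0.05 for these 2 and for 932 of the 16903 genes tested. DESeq2 on all libraries called the difference of Hmga2, as did edgeR without BV- NRF1 OE replicate 2 (1.27, adjusted p = 0.0144). Of all genes these fits called 0.136% and 0.195%. With offsets it was 1.31 for Hmga2 (adjusted p = 0.142 in edgeR) and 0.44 for Lin28b (adjusted p = 0.490).

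The general machinery of microRNA biogenesis was read from a list of 13 genes, all tested. With NRF1 OE in BV+ cells, Prkra, a partner of Dicer, rose by 0.52 ± 0.14 (adjusted p = 0.0492 in edgeR), which was 1 gene higher and 0 lower. In BV- cells Tarbp2, another Dicer partner, rose by 0.45 ± 0.12, and 3 genes fell: Dicer1, the nuclease that cuts precursors to mature microRNAs, by 0.59, Ago3, an Argonaute protein, by 1.21, and Ddx5, a helicase of the Drosha complex, by 0.48 (adjusted p = 0.0317 to 0.0439). Dicer1 fell to 213, 136 and 203 CPM from 294 and 260. The list's median was -0.10 in BV+ and -0.04 in BV- cells, against 0.04 and 0.01 over all genes. The background shares were 6.24% higher and 1.78% lower in BV+ and 10.2% and 6.98% in BV- cells. With GC and length offsets the calls in BV- cells were 0 higher and 1 lower. Of 8 other proteins that act on let-7 precursors or on uridylation, 0 passed in BV+ cells (1 at an unadjusted p under 0.05, and 0 by DESeq2), where Msi1, Syncrip and Hnrnpa1 had the largest values, at 0.54, -0.40 and -0.35. In BV- cells Tut1, a nuclear terminal uridylyl transferase, rose by 0.46 ± 0.12 (adjusted p = 0.0362 in edgeR) and 0 fell. Of the 8, 6 had an unadjusted p under 0.05 in edgeR, as did 6606 of the 16903 genes tested. DESeq2 called Tut1 higher and 2, Syncrip and Tent2, lower, where 12.1% of all genes were called higher and 11.7% lower. Without BV- NRF1 OE replicate 2 edgeR called 0 higher and 1, Syncrip, lower, where the shares were 6.41% and 8.16%. Medians were -0.11 and -0.20, and with offsets 0 of the 8 passed in either population.

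A list of 23 other genes known as let-7 targets, of which 16 held the shorter match and 11 the longer in their 3′ UTRs, was read in the same way. Of all genes with a 3′ UTR, 9.02% and 3.06% held them. For this list, unlike for the members, the share was not matched for UTR length. With NRF1 OE in BV+ cells 2 rose and 0 fell, beside 6.24% and 1.78% of all genes. Arid3a, a transcription factor, had 45.1 and 35.9 CPM against 24.4 and 27.2 (0.65 ± 0.15, adjusted p = 0.0325 in edgeR), and Prtg, a receptor of early embryonic cells, had 232 and 168 CPM against 130 and 138 (0.58 ± 0.15, adjusted p = 0.0392). In BV- cells 4 fell: Ccnd2, a G1 cyclin, by 1.02, Tgfbr1, a TGF-beta receptor, by 0.70, Nras, a small GTPase, by 0.40, and Dicer1 as above. The 2 that rose were Cdc34, a ubiquitin-conjugating enzyme (0.61), and Nme6, a nucleoside diphosphate kinase (0.55). The shares over all genes were 6.98% lower and 10.2% higher. Of these 6 genes, Ccnd2 and Dicer1 held no match. The medians were -0.03 in BV+ and -0.03 in BV- cells, against 0.04 and 0.01 over all genes. With offsets 3 rose and 0 fell in BV+ cells and 0 rose and 1 fell in BV- cells, and without BV- NRF1 OE replicate 2 the calls in BV- cells were 1 higher and 4 lower. The difference between the populations passed for 0 of the 23 in edgeR, with 2 at an unadjusted p under 0.05 and 0 by DESeq2.

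Between the populations, Prtg was higher in BV+ cells, as were Hmga2 and Lin28b. It had 49.9 to 54.7 CPM in the 5 BV- libraries and was higher in BV+ cells by 1.36 ± 0.15 with Ctrl and by 1.93 ± 0.13 with NRF1 OE (adjusted p = 0.00139 and 5.09e-06 in edgeR), and its 3′ UTR held 2 matches. With Ctrl it was the 1 of 23 called, where 1.1% of all genes were called higher and 0.0237% lower. With NRF1 OE 8 were called higher in BV+ cells and 1 lower, where the shares were 9.9% and 3.85%. The 8 were Prtg, Ccnd2 (1.00), Arid3a (0.79), the insulin and IGF receptors Insr (0.71) and Igf1r (0.54), Tgfbr1 (0.69), the receptor adaptor Irs2 (0.51) and the nuclear receptor Nr6a1 (0.41), whose 3′ UTR held 8 matches. Mycn, a MYC family transcription factor, was lower by -0.35. The 3′ UTRs of Ccnd2 and Mycn held no match. With NRF1 OE the median was 0.19 over the list and -0.0049 over all genes. With GC and length offsets the calls were 6 higher and 6 lower, where 9.96% of all genes were called higher and 21% lower.

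**Figure D5:**
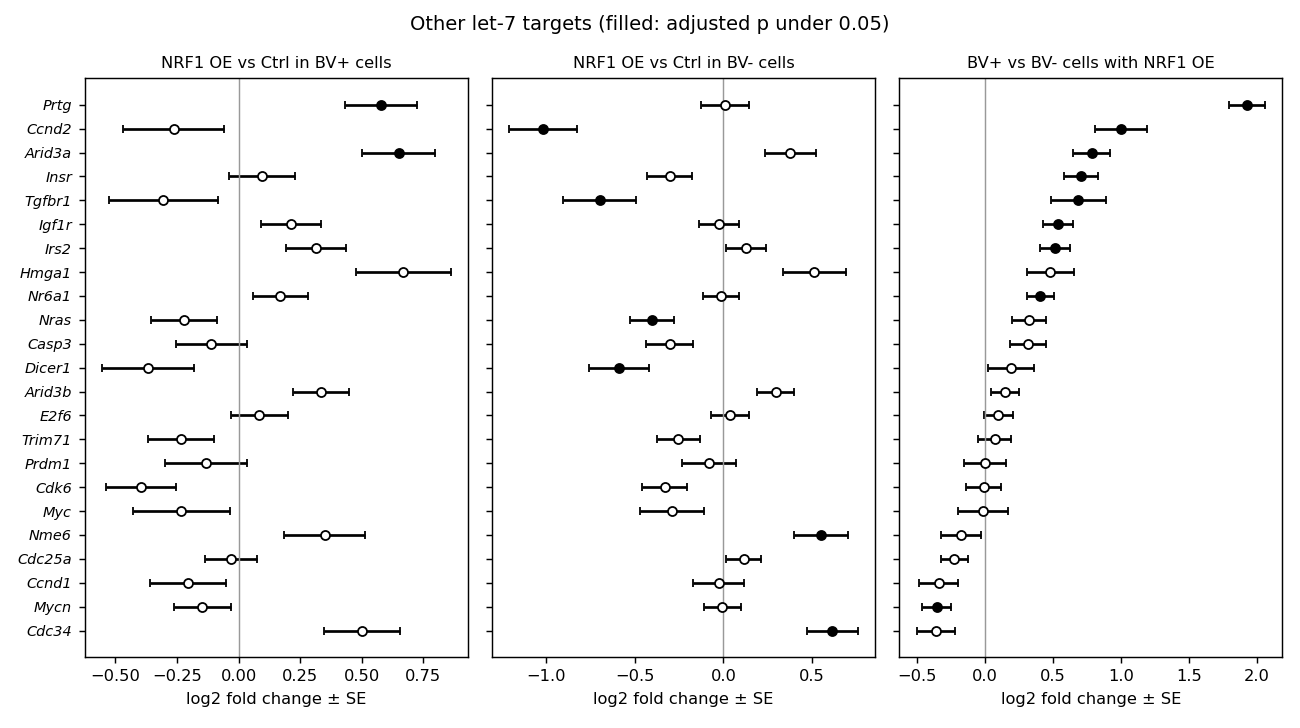
Log2 fold changes with standard errors from edgeR for 23 other let-7 targets, ordered by the difference between BV+ and BV- cells with NRF1 OE, and filled where the adjusted p was under 0.05. Each panel has its own axis, and the last shows 8 filled genes above 0 and 1 below.

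Let-7 itself could not be read from these libraries. They were made from poly(A) RNA, and of 12 let-7 and mir-98 precursor genes 10 had no count in any library, 1 (Mirlet7g) had 1 count and 1 (Mir98) had 2. The noncoding host Mir99ahg had 14 counts in all, and the protein-coding hosts Huwe1 and Wdr82 differed by -0.22 and -0.09 with NRF1 OE in BV+ cells (adjusted p = 0.367 and 0.572 in edgeR). Thus the values above are levels of the mRNAs of LIN28 genes, enzymes and targets, and no level of mature let-7 stands beside them.

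The genes whose log2 CPM ran closest to a member over the 9 libraries are given as a description, from 10987 genes with a mean of at least 5 CPM. Those closest to Hmga2 were Nol4l, Nid1 and Zfp334 (Pearson r = 0.992, 0.992 and 0.990), those closest to Lin28b were Klhl9, Hdgfl3 and Cxadr (0.992, 0.990 and 0.989), and those closest to Lin28a were Emilin1, Mmp14 and Id3 (0.995, 0.990 and 0.989). The libraries share the groups, the depth and the GC trends above. Whether NRF1's recognition sequence lies at the members' starts was read from 10 RefSeq promoters (GRCm38.p6, 250 bases before to 50 after the start) of 8 members, without Igf2bp1. Neither the motif core GCGCANGCG nor TGCGCA, which can overlap it, was found on either strand, while 6.25% and 7.76% of all 32851 promoters held them. This says only that these letters are not in these windows. Whether reads were counted by strand is not stated, and Igf2bp3 overlaps Malsu1 on the opposite strand (up to 575 counts in a library) and Dis3l2 the pseudogene Gm6136 (up to 3598), so that their values are uncertain where reads were shared.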

How the data were processed

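RNA-seq covered 9 libraries in 4 groups, mapped to groups by their titles. Per the study's methods, Cutadapt 1.9.1 trimmed the reads and FastQC 0.10.1 was used for quality. The authors aligned to GRCm39 by HISAT2 2.0.1, and HTSeq 0.6.1 gave counts on Ensembl 107 genes. The deposited values are raw counts per gene, and FPKM that the authors derived from them, used here only for levels per length. Counts were fitted in R 4.3.3 with edgeR 4.0.16 (quasi-likelihood F test, TMM, filterByExpr, 16903 genes, 4 groups in 1 fit of all libraries), two-sided, adjusted by Benjamini-Hochberg across those genes, at a threshold of 0.05. Most groups hold 2 libraries, so error estimates lean on information shared across genes. The mean chi-square per gene between replicates, 1 for sampling noise alone, was 2.99 in BV+ Ctrl and 6.59 in BV- Ctrl. It was 20.2 in BV+ NRF1 OE and 12.3 to 34.7 in BV- NRF1 OE, while the fit pools the spread over the groups. Alternatives were DESeq2 1.42.0, other scalings and filters, thinning, a replicate block, the study's threshold and each library left out. GC and length offsets, the fit without the least deeply sequenced library and a crossed block were chosen after seeing the data. The members, lists and tests were chosen with earlier results of these data known. Genes named from the lists had an adjusted p under 0.05 for NRF1 OE, or otherwise were the 3 with the largest change in BV+ cells; those called between BV+ and BV- cells were named after their values were seen. From the list of other let-7 targets 1 gene is not reported here, and the list's counts and medians are without it. The procedure was tested on simulated counts. Sequences came from RefSeq and GENCODE on GRCm38, and reference coordinates are of that build.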

Additional observations from a re-analysis of the deposited data

Results flagged for a closer look

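The log2 change with NRF1 OE in BV+ minus that in BV- cells was 0.68 for Lin28b and 1.40 for Hmga2. Members were flagged when NRF1 OE and Ctrl libraries separated without overlap in opposite directions in BV+ and BV- cells. In both genes every NRF1 OE library lay above every Ctrl library in BV+ cells and below every Ctrl library in BV- cells. This separation restates the rule and is no further support. For Lin28b the nearest NRF1 OE and Ctrl libraries had 52.3 and 50.4 CPM in BV+ and 21.5 and 22.4 in BV- cells. How many of all genes show this pattern was not counted. Tested as an interaction in edgeR, the adjusted p was 0.815 for Lin28b and 0.455 for Hmga2. The GC trend of the libraries moved with NRF1 OE in both populations, and with offsets for it the change of Lin28b in BV- cells was 0.19, no longer opposite to that in BV+ cells. The offsets may also remove a change that came with NRF1 OE. No group had the 4 libraries needed to test a library for standing apart.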

How the results depend on the processing

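With NRF1 OE in BV+ cells, where 0 members passed in edgeR, DESeq2 on all libraries, thinning and the study's threshold (unadjusted p under 0.05, absolute log2 fold change above 0.58) each called 1, no filter and a filter of 10 counts on average 2, GC and length offsets 3, the BV+ libraries alone 4, DESeq2 on them 5, and the fit without the least deeply sequenced library 5. In BV- cells the 2 calls became 0 in a fit of that population alone. Between BV+ and BV- cells with Ctrl, a filter of 10 counts and thinning gave 1 in place of 2, and the groups compared alone 3 (Tut7 added). With NRF1 OE, the 3 calls became 4 with DESeq2 on all libraries and no filter (Tut4 added) and with offsets (Igf2bp1 added), and 2 with DESeq2 on the groups compared alone (Lin28a lost). For the difference between populations DESeq2 and no filter gave 1 and the study's threshold 2, in place of 0. Leaving out each library of the groups compared in turn gave 0 to 1 members in BV+ cells, 0 to 4 in BV- cells, 0 to 1 between populations with Ctrl, 2 to 4 with NRF1 OE and 0 to 1 for the difference. The share of all genes called is not given for most of these fits. These counts thus show how the members' calls move with the setting, not that the members stand out from other genes. Counts per library were 193 to 1284 for Lin28b and 204 to 2662 for Hmga2.

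With the replicate number as a block, the calls were 0 in BV+ cells, 0 in BV- cells (in place of 2), 1 with Ctrl (in place of 2, Hmga2 at 1.32), 2 with NRF1 OE (in place of 3) and 0 for the difference. Same-numbered libraries did not deviate together throughout (r = -0.295 to 0.243) and no comparison has 3 pairs, so the numbers were not taken as pairs. In a group of 2 the deviations mirror each other, so crossing its numbers only changes the sign of r. The check thus cannot show that BV+ and BV- libraries were unpaired. With the BV+ numbers crossed, 2 members were called with Ctrl and 4 with NRF1 OE. The block also turned 3 values near 0, Igf2bp2 with NRF1 OE between populations (0.0048) and the difference for Dis3l2 (-0.022) and Tut7 (0.085).

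Of 756 recomputed log2 values, 46 turned in sign, none of them past the threshold before or after. With offsets these were Igf2bp3 in BV+ cells (0.10), Lin28b (0.19) and Igf2bp3 (0.076) in BV- cells, Dis3l2 (-0.10), Tut4 (-0.018), Igf2bp1 (-0.19) and Igf2bp2 (-0.081) between populations with Ctrl, Dis3l2 (-0.38) and Tut7 (-0.035) with NRF1 OE, and the difference for Dis3l2 (-0.28). Igf2bp1 with Ctrl turned with DESeq2 (-0.0072), its size factors (-0.0072), a filter of 10 counts (-0.011) and thinning (-0.014), and in BV+ cells in the fit of that population alone (-0.0013). Igf2bp2 with NRF1 OE between populations turned with library size alone (0.00049), a filter of 10 counts (0.010), thinning (0.012), only the groups compared (0.0086) and the crossed block (0.0020). The difference for Dis3l2 turned with upper-quartile factors (-0.043) and no filter (-0.014), and that for Tut7 with DESeq2 (0.0093), its size factors (0.0080) and a filter of 10 counts (0.048). With libraries of the groups compared left out in turn, signs turned for Igf2bp3 in BV+ cells (-0.15 to 0.023), Lin28a in BV- cells (-0.0027 to 0.12), Igf2bp1 (-0.016 to 0.011) and Igf2bp2 (-0.0020 to 0.092) with Ctrl, Dis3l2 (-0.016 to 0.14) and Igf2bp2 (-0.13 to 0.069) with NRF1 OE, and the difference for Dis3l2 (-0.055 to 0.069), Tut7 (-0.21 to 0.16) and Igf2bp2 (-0.17 to 0.023). The cause was not tested.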
